A study of Mus musculus with 8 samples.

Results

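Sox5, Sox6 and Sox9, the transcription factors known together as the chondrogenic Sox trio, were followed in 8 RNA sequencing libraries of the mouse trachea, all from embryos at E13.5. They were taken by gene symbol and are 3 of the 23478 gene rows in each of 2 count tables. The table of sorted cells held 2 libraries of Bmp4flox/flox embryos that also carried Foxg1Cre and the γSMAeGFP muscle reporter, called Bmp4 mutants here, and 3 libraries of Bmp4flox/flox embryos with the reporter and without Cre. Epithelial cells stained with an EPCAM antibody and GFP-positive muscle cells had been removed from both groups by flow sorting, and the labels call the cells that were left chondroblasts. The table of whole tracheas held 1 library of Wls flox/flox embryos with ShhCre, called the Wls mutant here, and 2 libraries of Wls flox/flox embryos without Cre. Bmp4 encodes a secreted ligand of the BMP family, and Wls is the protein that carries Wnt ligands to the cell surface. Shh-driven Cre is known to act in the airway epithelium, and the labels do not say in which tracheal cells Foxg1Cre acted. Neither control group carried Cre, so an effect of Cre itself cannot be told apart from the deletion. Whether replicate libraries stem from different embryos, litters or pools is not stated in the labels, so p-values reflect no more than library-to-library spread, part of which may be technical. The tables share no control library, and the tests stayed within a table.

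Sox9 is the factor that commits mesenchymal cells to cartilage, and it binds enhancers of cartilage matrix genes such as Col2a1, Col9a1 and Acan. Sox5 and Sox6 belong to another subfamily, SoxD. They have no activation domain of their own, bind DNA as dimers and act beside Sox9 on the same matrix genes, and in the mouse they are needed for chondroblasts to mature. In the developing trachea Sox9 marks the mesenchyme that forms the cartilage rings, and it is also used by epithelial tip cells of the lung.

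The coding sequence of the DNA-binding domain shows how close the members are to each other, which bears on whether reads could be counted to the wrong one. The stretches below are the 85 codons that align without gaps and hold the HMG box, the DNA-binding domain of Sox proteins. They run 5′ to 3′ on the coding strand, with the intron removed, and were taken from GENCODE release M21 transcripts on mm10. Capitals mark the bases that differ from Sox6 in the Sox5 line, and the bases that differ from Sox5 in the other lines.
Sox5: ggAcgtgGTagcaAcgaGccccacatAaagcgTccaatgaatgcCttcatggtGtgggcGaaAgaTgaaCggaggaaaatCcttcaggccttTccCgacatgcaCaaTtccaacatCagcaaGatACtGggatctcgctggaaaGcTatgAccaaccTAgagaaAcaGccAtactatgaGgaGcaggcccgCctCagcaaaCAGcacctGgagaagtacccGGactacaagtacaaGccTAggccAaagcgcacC
Sox6: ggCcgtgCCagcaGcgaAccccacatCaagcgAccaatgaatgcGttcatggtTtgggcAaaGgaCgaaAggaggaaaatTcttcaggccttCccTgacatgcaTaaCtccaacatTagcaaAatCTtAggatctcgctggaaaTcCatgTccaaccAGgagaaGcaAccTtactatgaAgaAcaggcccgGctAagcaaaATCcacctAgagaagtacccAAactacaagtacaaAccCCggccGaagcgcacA
Sox9: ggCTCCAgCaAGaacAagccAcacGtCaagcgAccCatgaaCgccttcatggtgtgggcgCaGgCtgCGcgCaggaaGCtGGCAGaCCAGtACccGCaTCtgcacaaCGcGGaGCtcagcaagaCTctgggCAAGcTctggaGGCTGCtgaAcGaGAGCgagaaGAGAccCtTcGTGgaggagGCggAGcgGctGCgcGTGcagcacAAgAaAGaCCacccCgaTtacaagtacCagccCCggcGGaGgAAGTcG
The Sox5 stretch covers codons 548 to 632 of its longest annotated protein and lies on the minus strand at chr6:143835288-143841303. The Sox6 stretch covers codons 613 to 697 on the minus strand at chr7:115486640-115489792. The Sox9 stretch covers codons 97 to 181 on the plus strand at chr11:112782873-112783920. Sox5 and Sox6 share 209 of the 255 bases (82.0%), whereas Sox9 shares 153 of them with Sox5 (60.0%) and 144 with Sox6 (56.5%). Over the whole transcripts used here, the longest run of identical bases was 23 between Sox5 and Sox6, 18 between Sox9 and Sox5 and 14 between Sox9 and Sox6.

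The genes differ widely in their span on the genome. On mm10, Sox5 (ENSMUSG00000041540.16) runs over chromosome 6 from 143828425 to 144781977, a span of 953.553 kb with 7.425 kb of exon. Sox6 (ENSMUSG00000051910.13) runs over chromosome 7 from 115470872 to 116038796, a span of 567.925 kb with 9.362 kb of exon. Sox9 (ENSMUSG00000000567.5) is compact, on chromosome 11 from 112782224 to 112787760, with 4.135 kb of exon. No annotated gene overlaps Sox9. Of 7 annotated genes that overlap Sox5, 1 has its own row, the antisense gene Sox5os3, and neither of the 2 that overlap Sox6 has one. Sox5os3 had 28 and 16 counts in Bmp4 mutants 1 and 2 against 2, 0 and 0 in controls 1 to 3, and 0 in every trachea. It has 1.24 kb of exon, and receptor genes, described below, had 20.2 and 21.5 counts per kilobase in mutants 1 and 2. Whether the Sox5os3 counts are such background was not tested. The strand setting of the counting is not given in the sources used here, so reads of Sox5 and of its antisense genes cannot be told apart.

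Depth in the sorted cells was 12964287 and 15462780 counts for the Bmp4 mutants and 48876948 to 55492747 for the controls. Depth in the tracheas was 24596836 counts for the Wls mutant, with 27237573 and 31399982 for the controls. The Bmp4 mutant libraries stood apart in a second way: 1429 olfactory and vomeronasal receptor genes, genes of sensory neurons of the nose, had 20.2 and 21.5 counts per kilobase of coding sequence there, against 0.284 to 0.401 in their controls. The same genes had 0.665 counts per kilobase in the Wls mutant against 0.654 and 1.04 in its controls. If this rate holds over the exons of the trio, it accounts for 33.5% and 19.2% of the Sox5 counts, 32.8% and 28.7% of the Sox6 counts and 3.76% and 1.08% of the Sox9 counts in Bmp4 mutants 1 and 2. In the controls of the sorted cells that share was at most 0.0863%, and in the tracheas at most 0.987%. The rate was uneven between receptor genes, with a coefficient of variation of 0.959, so the share for a single gene is a rough estimate. It is per kilobase of coding sequence, a median of 939 bases per receptor gene, but was applied to whole exons with untranslated parts. Exons of receptor genes have a median of 3050 bases, so the shares and the subtraction may be too large. Sox1 and Sox21, with at most 12 counts in a control, had 0.205 to 0.355 times the count this rate gives in the mutants. Sox14 had 1.10 and 0.49 times that count in mutants 1 and 2. Fold changes of the trio, list counts and count ratios of the sorted cells are therefore given on the deposited counts and again after background subtraction. Levels, sums and nearest genes are given on the deposited counts only, as are the fold changes of some other genes.

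The deleted genes checked the labels. Bmp4 fell to 24.1 and 32.2 CPM (a gene's counts scaled to a common library total, with TMM factors) in the Bmp4 mutants, against 124, 99.2 and 121 in controls 1 to 3 (log2 fold change -2.03 ± 0.20 SE, adjusted p = 0.0033, edgeR's quasi-likelihood test as for all adjusted p-values here). Wls fell to 65.8 CPM in the Wls mutant, against 153 and 146 in the controls (log2 fold change -1.19 ± 0.18, adjusted p = 2.2e-07). Each deleted gene was also lower in the other table, Wls at a log2 fold change of -1.10 in the Bmp4 mutants (adjusted p = 0.010) and Bmp4 at -0.69 in the Wls mutant (adjusted p = 0.011). The tables count whole genes, so reads from undeleted exons and undeleted cells remain in these values.

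The label of the sorted cells was set against 5 chondroblast markers in the 3 controls. Sox9 was between 733 and 1946 CPM, the cartilage collagen gene Col2a1 between 838 and 1526 and Col9a1 between 283 and 454. Acan, which encodes the proteoglycan aggrecan, was at 22.9, 8.54 and 1.52 CPM in controls 1 to 3, and the cartilage matrix gene Matn1 had 0, 0 and 0.166 CPM. The early cartilage genes were thus high and the later matrix markers low or nearly undetected in the control cells.

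All 3 members of the trio fell in the Bmp4 mutant cells and in the Wls mutant trachea. In the sorted cells Sox9 was at 12.9% and 37.3% of the control mean in mutants 1 and 2, while Sox5 was at 28.8% and 41.8% and Sox6 at 43.9% and 41.5%. In the trachea with Wls deleted, Sox9 was at 41.3%, Sox6 at 48.9% and Sox5 at 55.2% of the control mean. In bulk samples, fewer cells of a type and less RNA per cell cannot be told apart.

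Sox9, the activator of the trio, had 162 and 469 CPM in Bmp4 mutants 1 and 2, against 1946, 1090 and 733 CPM in controls 1 to 3. Both mutants were below every control, but the libraries of each group were far apart, with the higher mutant 2.89 times the lower one and the highest control 2.65 times the lowest. Its log2 fold change was -1.99 ± 0.56 (SE, 2 mutants and 3 controls, adjusted p = 0.021). Without mutant 1, whose Sox9 was the lowest of the 5 libraries, the log2 fold change was -1.43 and the adjusted p was 0.10. After subtraction of the background the log2 fold change was -1.63 with an adjusted p of 0.097. Subtraction took 3.76% and 1.08% of the Sox9 counts of mutants 1 and 2, and library scaling was computed anew on the subtracted counts. The Sox9 direction was the same in all 13 alternatives.

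Sox5 had 32.7 and 47.3 CPM in Bmp4 mutants 1 and 2, against 120, 116 and 104 CPM in controls 1 to 3. The controls lay close together, with a coefficient of variation of 7.05% against 49.6% for Sox9, and every control was over every mutant by more than the mutants differed. The log2 fold change was -1.50 ± 0.19 (SE, adjusted p = 0.0033), and after background subtraction -1.53 (adjusted p = 0.023).

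Sox6 had 42.1 and 39.8 CPM in Bmp4 mutants 1 and 2, against 107, 96.04 and 85.1 CPM in controls 1 to 3. Here the 2 mutants differed by a factor of 1.06, so the low Sox9 of mutant 1 was not matched by a lower Sox6. The log2 fold change was -1.23 ± 0.16 (SE, adjusted p = 0.0033), and after background subtraction -1.37 (adjusted p = 0.023). With the background subtracted, the adjusted p of Sox5 and of Sox6 was 0.055 each without control 2 or without control 3, and under 0.05 without any other library.

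These calls stand on a wide background of change. In the sorted cells 15.6% of the 21665 genes tested were called lower and 39.3% higher at an adjusted p under 0.05. After background subtraction 7.63% of 18171 genes were called lower and 14.2% higher. In 25.6% of the genes tested every mutant lay below every control, as all 3 members did. Over all genes tested the median log2 fold change was 0.53. It was -0.26 among the 12927 genes whose mean count over the 5 libraries exceeded 5 times the mean receptor-gene background. A gene could pass this filter through the deeper controls alone, so the filter may favour genes lower in the mutants. When the libraries were scaled on the 12927 genes alone, the log2 fold changes were -1.26 for Sox5, -0.98 for Sox6 and -1.75 for Sox9, all past the threshold. The choice of genes limits this scaling in the same way. That scaling moved the calls from 71.6% higher and 28.4% lower to 86.4% higher and 13.6% lower, and after subtraction they were 65.0% higher and 35.0% lower.

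**Figure D1:**
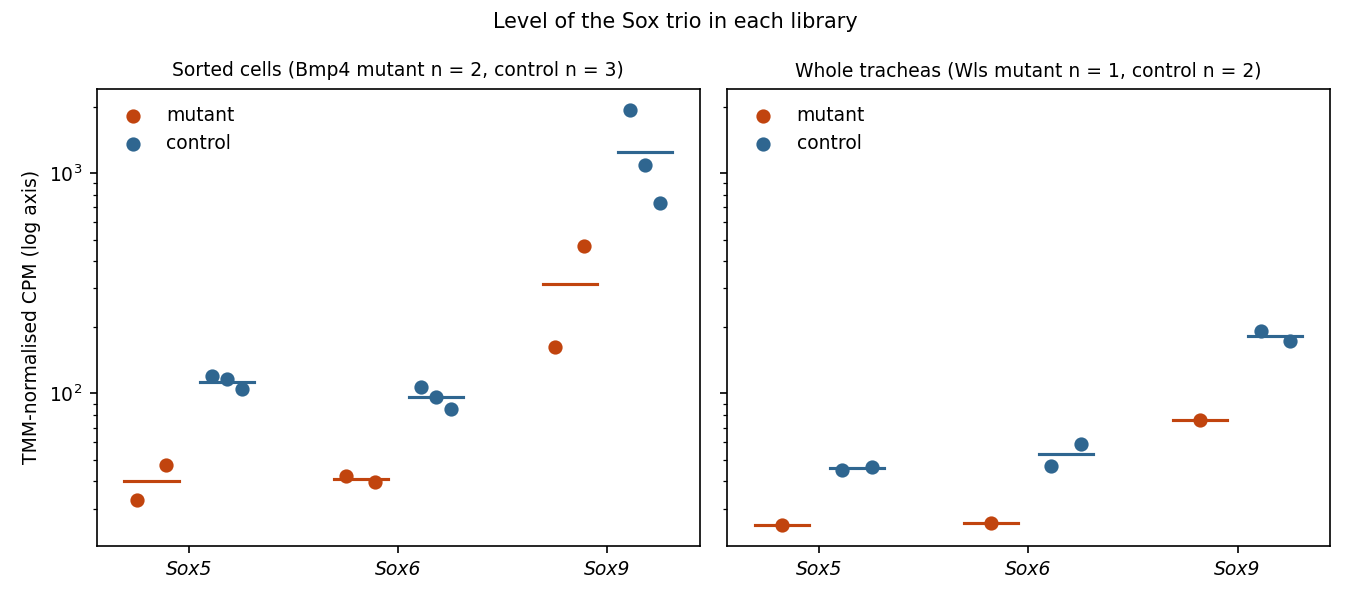
TMM-scaled CPM of each member on a log axis, with 1 point per library and a line at the group mean, mutants left of controls, for the sorted cells and the whole tracheas. Every mutant point lies below every control point of its table, and the Sox9 points of the sorted cells are the most spread, from 162 to 469 CPM in mutants and from 733 to 1946 CPM in controls.

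The tracheas with Wls deleted in the epithelium give the second view of the trio, with a single mutant library. Sox9 had 75.5 CPM in the Wls mutant, against 193 and 173 CPM in controls 1 and 2. Its log2 fold change was -1.28 ± 0.19 (SE, 1 mutant and 2 controls, adjusted p = 3.4e-08). Sox6 had 25.9 CPM in the Wls mutant, against 46.8 and 58.9 CPM in the controls, a log2 fold change of -1.03 ± 0.19 (adjusted p = 2.7e-05). Sox5 had 25.3 CPM in the Wls mutant, against 45.1 and 46.5 CPM in the controls, a log2 fold change of -0.86 ± 0.19 (adjusted p = 7.7e-04).

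In each case the mutant lay below both controls by more than the controls differed. The test had 1 residual degree of freedom and assumed that the lone mutant varies like the controls. It also draws each gene's variance toward that of other genes, so these SEs and p-values rest largely on other genes. The SE was 0.19 for each member, while the higher control was 1.03 times the lower for Sox5, 1.26 for Sox6 and 1.12 for Sox9. In the tracheas 2.39% of the 15815 genes tested were called lower and 1.88% higher, and 37.6% had the mutant below both controls. The median log2 fold change was -0.01. Against that background the 3 members passed with DESeq2, limma-voom, RLE scaling and both other filters as well. When either control was left out, which leaves a value with no test, the log2 fold change stayed between -0.87 and -0.83 for Sox5, between -1.17 and -0.85 for Sox6 and between -1.35 and -1.18 for Sox9. Whether the members differ between the Bmp4 and Wls comparisons was not tested.

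**Figure D2:**
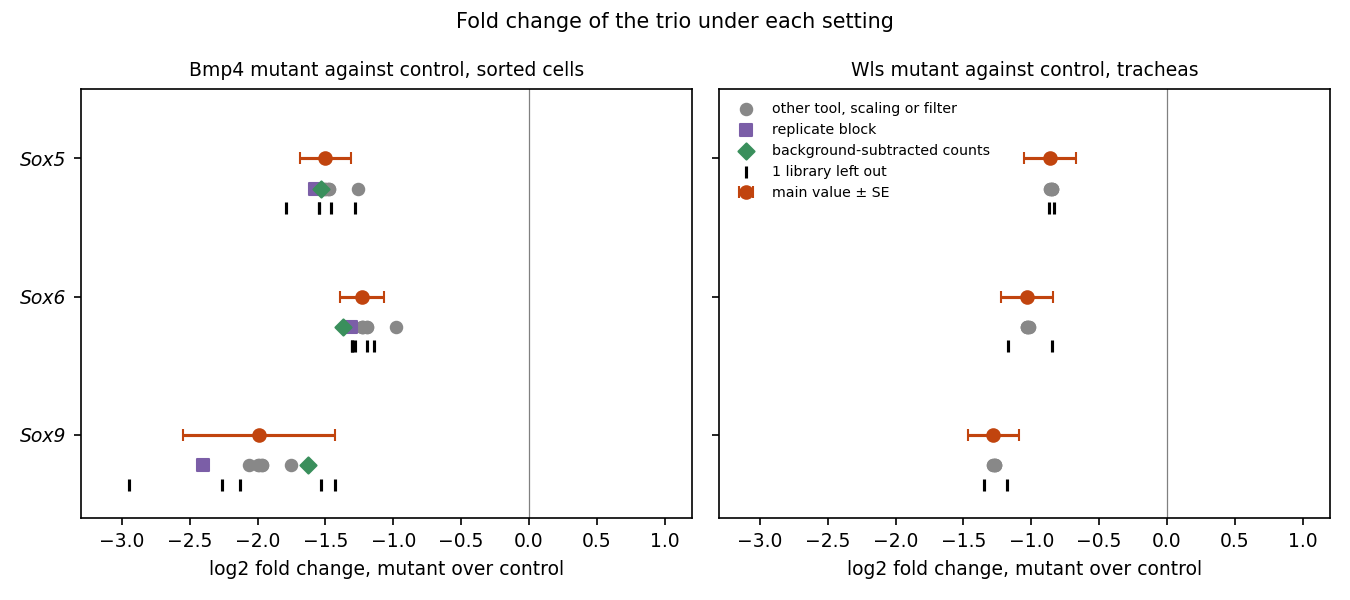
Log2 fold change of each member, mutant over control, in the sorted cells (left) and tracheas (right), with the main edgeR value and its SE, and below it the values under each other setting. All values are below 0, and the Sox9 values of the sorted cells run from -2.95 without mutant 2 to -1.43 without mutant 1.

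Within a library, the ratio of 2 members' counts does not depend on how libraries are scaled. In the sorted cells the log2 ratio of Sox6 to Sox9 counts was -1.94 and -3.56 in mutants 1 and 2, against -4.19, -3.50 and -3.11 in controls 1 to 3. On these counts mutant 1 stood above all controls and mutant 2 just below control 2, within the range of the controls. The log2 ratio of Sox5 to Sox9 was -2.31 and -3.31 in mutants 1 and 2, against -4.02, -3.23 and -2.81 in controls 1 to 3. Mutant 1 again stood above all controls on the deposited counts. The log2 ratio of Sox5 to Sox6 was -0.37 and 0.25 in mutants 1 and 2, against 0.17, 0.27 and 0.29 in controls 1 to 3.

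The background moved these ratios. After subtraction the log2 ratio of Sox5 to Sox9 was -2.84 and -3.60 in mutants 1 and 2, against -4.02, -3.23 and -2.81 in controls 1 to 3, so that both mutants lay within the range of the controls. The log2 ratio of Sox6 to Sox9 was -2.46 and -4.03 in the mutants, with mutant 1 still above all controls, which were at -4.19, -3.51 and -3.11. The log2 ratio of Sox5 to Sox6 was -0.38 and 0.43 in the mutants, on either side of the controls at 0.17, 0.27 and 0.29.

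The group means differed by 0.85 for Sox6 to Sox9, 0.55 for Sox5 to Sox9 and -0.30 for Sox5 to Sox6 on the deposited counts, mutants minus controls, beside a control SD of 0.55, 0.61 and 0.07. After subtraction they differed by 0.36, 0.14 and -0.22. A two-sided exact permutation test over the 5 libraries gave p = 0.6, 0.6 and 0.4 on the deposited counts (adjusted p = 0.6 for each). With 2 mutants and 3 controls the smallest p this test allows is 0.2, so it could not have passed and says nothing on whether the ratios differ. In the tracheas the log2 ratio of Sox5 to Sox9 was -1.58 in the Wls mutant, against -2.10 and -1.89 in the controls. The log2 ratio of Sox6 to Sox9 was -1.54 in the mutant, against -2.05 and -1.55 in the controls, and that of Sox5 to Sox6 was -0.03, against -0.05 and -0.34. With 1 mutant no test over samples was made of these ratios.

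**Figure D3:**
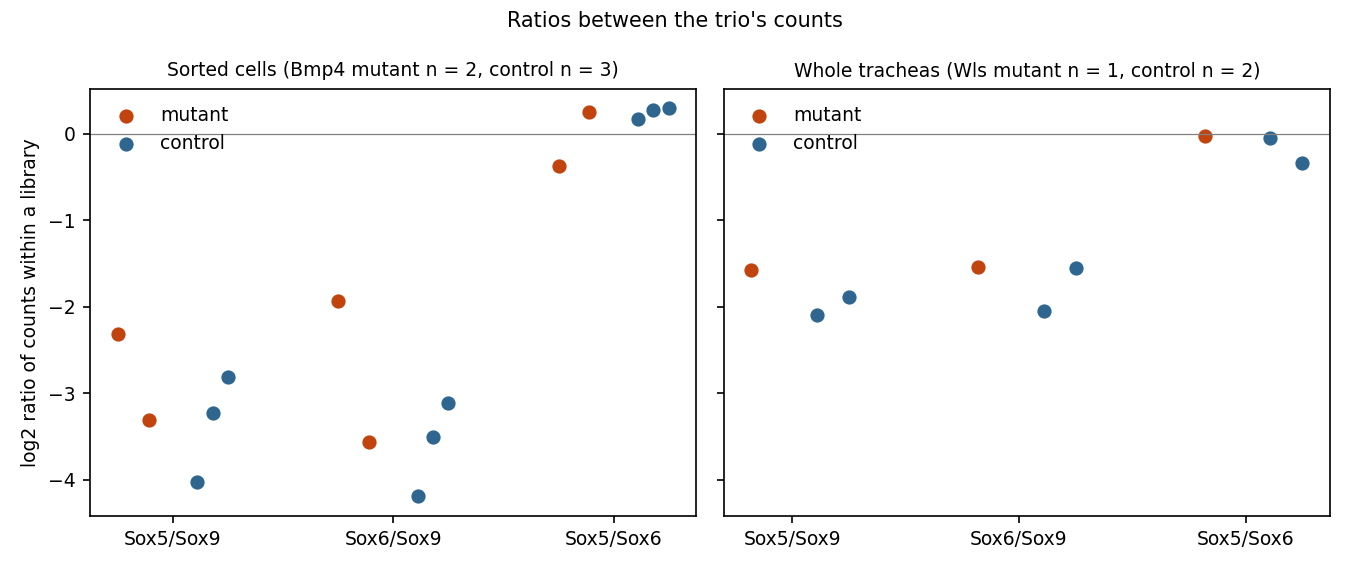
Log2 ratio of the counts of 2 members within each library, 1 point per library, mutants left of controls, for the sorted cells and the tracheas. Plotted are the deposited counts, on which Bmp4 mutant 1 lies above all controls for both ratios to Sox9, at -2.31 and -1.94; after background subtraction it lies within them for Sox5 to Sox9, at -2.84.

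Levels of different genes were compared per kilobase of exon. In CPM per kilobase, Sox9 had 39.2 and 113 in Bmp4 mutants 1 and 2, against 471, 264 and 177 in controls 1 to 3. Sox5 had 4.40 and 6.37 in the mutant libraries, against 16.1, 15.6 and 14.1 in controls 1 to 3. Sox6 had 4.49 and 4.25 in the mutant libraries, against 11.4, 10.3 and 9.09 in controls 1 to 3. On this scale Sox9 was the highest member in all 8 libraries, ranking 95, 221 and 385 among 21394 genes in controls 1 to 3 and 1653 and 435 in mutants 1 and 2. Sox5 was above Sox6 in every sorted control, whereas the libraries of the Bmp4 mutants overlapped for these members.

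In the tracheas the distance was smaller. Sox9 had 18.3 CPM per kilobase in the Wls mutant, against 46.7 and 41.7 in the controls. Sox5 had 3.41 in the mutant, against 6.08 and 6.27 in the controls, and Sox6 had 2.76 in the mutant, against 4.995 and 6.29. The Sox9 level per kilobase was 5.36 times that of Sox5 in the Wls mutant, against 7.69 and 6.66 times in its controls, and 8.91 and 17.8 times in Bmp4 mutants 1 and 2, against 29.2, 16.9 and 12.6 times in their controls. Sox5 and Sox6 overlapped in the trachea controls and were not separated there. Amplification kits differed between the tables, so a difference in these ratios between sorted cells and tracheas cannot be told apart from the kit.

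The cartilage genes that Sox9 is known to bind or to need were described as a list of 28 genes, of which 26 have a row. In the Bmp4 mutant cells 7 of 26 tested were called lower and 4 higher, beside 15.6% and 39.3% of all genes, and the list's median log2 fold change was -0.70 beside 0.53 for all genes. The summed level of the list was 909 and 2235 CPM in mutants 1 and 2, against 6029, 3965 and 3285 CPM in controls 1 to 3 (sums of lists are not TMM-scaled). Like Sox9 itself, the sum was lowest in mutant 1 and highest in control 1.

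Col2a1, the main collagen of cartilage, fell to 91.3 and 289 CPM in Bmp4 mutants 1 and 2, against 1526, 882 and 838 CPM in controls 1 to 3 (log2 fold change -2.51 ± 0.53, adjusted p = 0.0068). Col9a1, a collagen on the surface of Col2a1 fibrils, fell to 39.3 and 109 CPM in the mutants, against 454, 356 and 283 CPM in the controls (-2.29 ± 0.44, adjusted p = 0.0047). Wwp2, a ubiquitin ligase gene that hosts the cartilage microRNA miR-140, fell to 199 and 473 CPM in the mutants, against 1536, 1124 and 1006 CPM in the controls (-1.86 ± 0.40, adjusted p = 0.0069). For these 3 genes the groups did not overlap, and they were also called after background subtraction, at adjusted p of 0.043, 0.037 and 0.047. Acan was at 9.86 and 19.4 CPM in the mutants, against 22.9, 8.54 and 1.52 CPM in the controls, overlapping groups that did not pass the test (0.41 ± 0.91, adjusted p = 0.72). Its log2 fold change was -0.67 after background subtraction, also without passing the test (adjusted p = 0.80).

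The 4 listed genes called higher were Comp, Matn3, Matn1 and Ucma, all genes of later cartilage matrix, named here because the count is small. Matn3 had 217 and 141 counts in Bmp4 mutants 1 and 2, against at most 22 in a control, and the receptor-gene rate gives 60.8 and 64.9 for its exons. Comp had 62 and 61 counts in the mutants, against at most 8 in a control, with 48.7 and 52.1 given by that rate. Matn1 had 57 and 50 counts, against at most 8, with 40.4 and 43.1 given by it. Ucma had 58 and 43 counts, against at most 2, with 17.8 and 19.1 given by it. Thus 2 of the 4 had less than 2 times the count that the receptor-gene rate gives in either mutant. That rate may be too high for whole exons, since Sox1 and Sox21 had 0.205 to 0.355 times the count it gives. Whether the rise of these 4 genes is background was not tested. After subtraction 3 of the 26 list genes were called lower and 2 higher, beside 7.63% and 14.2% of all genes, with a median of -0.70 beside -0.02.

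In the Wls mutant trachea 11 of 24 tested genes of the same list were called lower and 0 higher by edgeR, beside 2.39% and 1.88% of all genes. DESeq2 and limma-voom also called 0 higher, and 1 was higher at an unadjusted p under 0.05 in edgeR. The list's median log2 fold change was -0.96 beside -0.01. The list summed to 1036 CPM in the mutant, against 2532 and 2395 CPM in the controls. Col2a1 fell to 195 CPM in the Wls mutant, against 636 and 527 CPM in the controls (log2 fold change -1.57 ± 0.22, adjusted p = 7.2e-09). Acan fell to 2.21 CPM in the mutant, against 13.9 and 12.5 CPM in the controls (-2.57 ± 0.31, adjusted p = 8.2e-12). The lowest adjusted p-values belonged to Col11a2, a fibrillar collagen gene (9.87 CPM in the mutant, against 46.4 and 41.1), to the matrilin gene Matn4 (46.8 CPM, against 175 and 155) and to Col9a3 (56.4 CPM, against 207 and 171). The remaining genes called lower were Col9a1, Col9a2, Wwp2, Susd5, Papss2 and Fgfr3, whose log2 fold changes lay between -1.97 and -0.76. A difference between the comparisons in the response of Acan or of any other listed gene was not tested.

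**Figure D4:**
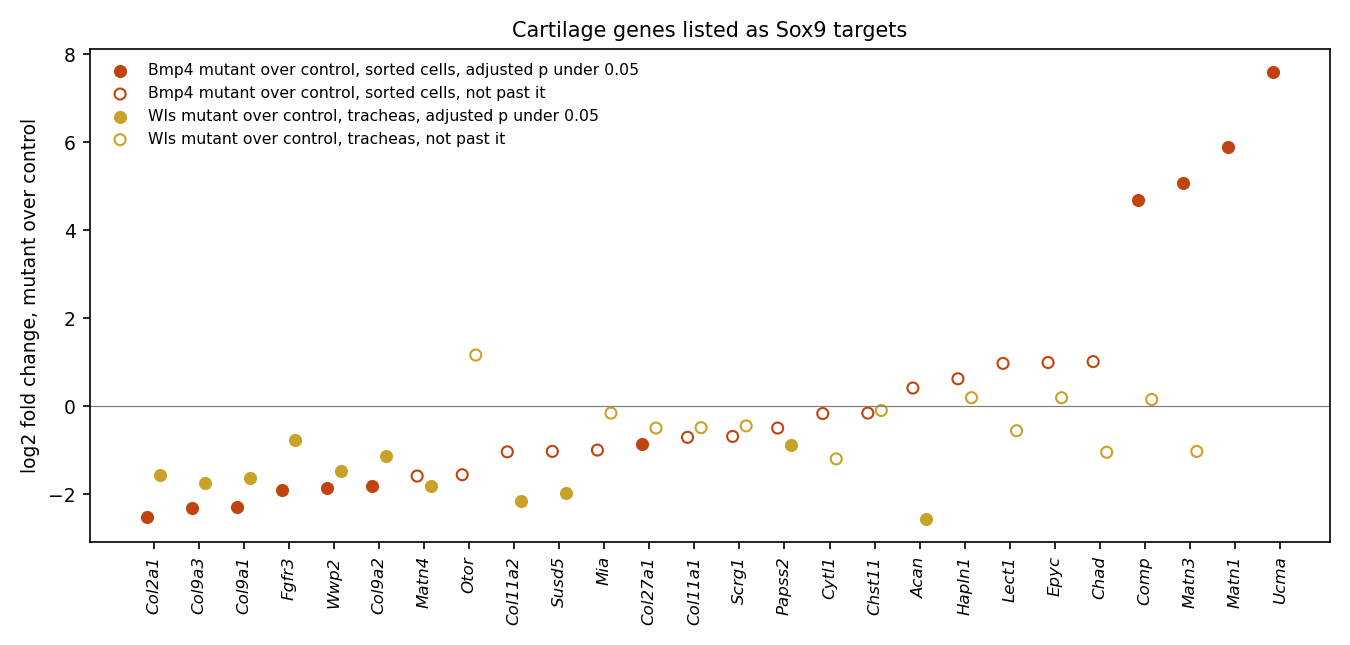
Log2 fold change, mutant over control, of cartilage genes listed as Sox9 targets, in the sorted cells and in the tracheas, ordered by the sorted cells. Filled points passed the threshold; the 4 positive filled values on the right belong to genes with at most 22 counts in any control of the sorted cells, where a fitted fold change depends on the prior count.

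Regulators of chondrogenesis and cofactors of Sox9 moved in both directions in the sorted cells. Of 25 tested, 9 were called lower and 8 higher in the Bmp4 mutants, beside 15.6% and 39.3% of all genes, with a median log2 fold change of -0.01. Crebbp, a histone acetyltransferase that binds Sox9, fell to 60.1 and 54.3 CPM in Bmp4 mutants 1 and 2, against 114, 110 and 115 CPM in controls 1 to 3 (-0.98 ± 0.14, adjusted p = 0.0033). Arid5b, a chromatin factor that acts with Sox9, fell to 59.3 and 54.8 CPM in the mutants, against 102, 103 and 115 CPM in the controls (-0.90 ± 0.14, adjusted p = 0.0033). Zfp219, a zinc finger partner of Sox9, fell to 32.5 and 31.6 CPM in the mutants, against 57.8, 67.7 and 74.3 CPM in the controls (-1.06 ± 0.17, adjusted p = 0.0033).

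The Runx genes, regulators of chondrocyte maturation and bone, were called higher. Runx2 had 31.0 and 14.95 CPM in the Bmp4 mutants, against 5.14, 3.66 and 8.15 CPM in the controls (2.02 ± 0.45, adjusted p = 0.0085). Runx3 had 19.9 and 13.6 CPM in the mutants, against 4.96, 7.24 and 5.90 CPM in the controls (1.47 ± 0.34, adjusted p = 0.0099). Runx1 had 25.8 and 26.2 CPM in the mutants, against 13.4, 13.2 and 16.3 CPM in the controls (0.86 ± 0.22, adjusted p = 0.015). After background subtraction 0 of 21 genes of this list were called higher by edgeR and 8 lower, beside 14.2% and 7.63% of all genes. At an unadjusted p under 0.05, 2 were higher. Subtracted log2 fold changes of Runx2, Runx3 and Runx1 were 1.65, 1.28 and 0.55 (edgeR adjusted p = 0.11, 0.074 and 0.18). Those called lower included Crebbp at -1.02, Arid5b at -0.80 and Zfp219 at -0.88. Foxc2 was also called lower, at -11.56 after subtraction against -2.24 on the deposited counts. Foxc2 had 1.61 and 3.1 CPM in mutants 1 and 2, so the subtracted value depends on the background estimate, below which counts become 0. Pax1, Pax9 and Dlx6, below the background estimate in both mutants, could not be called higher. In the Wls mutant trachea 2 of 24 were called lower by edgeR, beside 2.39% of all genes, with a median of -0.21. By edgeR, DESeq2 or limma-voom 0 were called higher, beside 1.88% of all genes in edgeR. At an unadjusted p under 0.05 in edgeR 1 was higher. Those called lower were Foxc2, a forkhead factor (18.1 CPM in the mutant, against 35.6 and 29.6, -0.85 ± 0.20, adjusted p = 0.0015), and the bone factor Sp7 (1.60 CPM, against 5.53 and 5.22, adjusted p = 0.0012), which is below the level set for naming.

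Among 17 other Sox genes, 15 were tested in the sorted cells, where 4 were called lower and 3 higher, beside 15.6% and 39.3% of all genes, with a median of 1.33 beside 0.53. The median was the same with Sox1 and Sox14, at 0 in every control, set to their bound against 3 counts over the control group. Sox4 and Sox11, SoxC factors of progenitor cells, were among those that fell. Sox4 had 26.9 and 38.9 CPM in Bmp4 mutants 1 and 2, against 180, 120 and 86.0 CPM in controls 1 to 3 (-1.97 ± 0.34, adjusted p = 0.0034). Sox11 had 50.8 and 56.2 CPM in the mutants, against 139, 130 and 238 CPM in the controls (-1.66 ± 0.29, adjusted p = 0.0035). The third SoxC gene, Sox12, had 22.9 and 14.9 CPM in the mutants, against 45.4, 42.0 and 54.7 CPM in the controls (-1.33 ± 0.24, adjusted p = 0.0040). The 3 called higher were Sox1, Sox14 and Sox21, with 20 to 46 counts in a mutant library, at most 1.10 times the count that the receptor-gene rate gives, and at most 12 counts in a control. After subtraction 4 of 12 were called lower by edgeR, beside 7.63% of all genes, with a median of -0.96. Adjusted or not, 0 were called higher, beside 14.2% of all genes at an adjusted p under 0.05. Sox2 was among those called lower, at -7.90 after subtraction against 1.38 on the deposited counts. Sox2 had 2.92 and 1.81 CPM in mutants 1 and 2, so the subtracted value depends on the background estimate, which may be too large. Counts below the background estimate become 0, so Sox1 and Sox21, below it in both mutants, could not be called higher. The SoxD gene not in the trio, Sox13, had 7.60 and 2.78 CPM in the mutants, against 2.91, 3.51 and 3.62 CPM in the controls, not past the threshold (0.63 ± 0.57, adjusted p = 0.37). Sox8, which belongs to the subfamily of Sox9, was at 17.7 and 28.2 CPM in the mutants, against 13.48, 16.3 and 21.7 CPM in the controls, without passing either (0.42 ± 0.31, adjusted p = 0.27). Sox13 and Sox8 were chosen for their subfamilies after their values were seen.

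In the tracheas 13 other Sox genes were tested, of which 1 fell and 1 rose, beside 2.39% and 1.88% of all genes. Their median was -0.26. Sox4 fell to 157 CPM in the Wls mutant, against 287 and 252 CPM in the controls (-0.78 ± 0.19, adjusted p = 0.0033). Sox2, a factor of the airway epithelium, rose to 132 CPM in the mutant, against 79.6 and 54.3 CPM in the controls (0.98 ± 0.17, adjusted p = 4.8e-06).

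The sums of markers of other cells are given beside these results. In the sorted cells 39.3% of all genes were called higher and 15.6% lower on the deposited counts. These shares are the background for each marker list on those counts. Airway epithelium genes summed to 154 and 91.8 CPM in Bmp4 mutants 1 and 2, against 35.7 to 52.0 CPM in the controls, with 6 of 12 tested called higher and Krt5 and Shh too low to test. Smooth muscle genes summed to 1894 and 416 CPM in the mutants, against 292 to 399 CPM in the controls, with 8 of 12 called higher. Neural crest, glial and neuronal genes summed to 708 and 851 CPM, against 373 to 567 CPM (3 of 13 higher, 1 lower). Skeletal muscle genes summed to 313 and 229 CPM, against 15.1 to 152 CPM (4 of 12 higher). Most of the mutant sums came from Ttn, at 210 and 163 CPM (TMM-scaled) against 9.22 to 24.5 CPM. Myod1 and Myog were highest in control 3, at 21.3 and 54.8 CPM. Erythroid genes made up 126700 CPM of mutant 1 and 1328 CPM of mutant 2, against 36.1 to 9744 CPM in the controls, with 2 of 9 higher and 3 of the 12 listed at 0 counts in every library. Endothelial genes summed to 286 and 229 CPM, against 43.8 to 141 CPM (2 of 10 higher). Fibroblast and perichondrial genes summed to 14600 and 17600 CPM, against 8004 to 11250 CPM (6 of 12 higher). After background subtraction, with 14.2% of all genes called higher and 7.63% lower, epithelial genes were 0 of 10 higher and 2 lower by edgeR. Sox2, above its controls before subtraction, was among the lower, and 2 genes were higher at an unadjusted p under 0.05. Skeletal muscle genes were 0 of 9 higher by edgeR, with 1 at an unadjusted p under 0.05. Smooth muscle genes were then 4 of 12 higher, neural genes 3 of 13, erythroid genes 2 of 9, endothelial genes 1 of 10 and fibroblast genes 7 of 12. On the deposited counts mutant 1, the library with the lowest Sox9, also had the highest sums of erythroid, smooth muscle, epithelial and endothelial genes. It had the highest skeletal muscle sum too, mostly through Ttn. No sums were taken after subtraction. Neural and fibroblast sums were highest in mutant 2. The part of these cells in the results for the trio was not tested.

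In the tracheas, airway epithelium genes summed to 1274 CPM in the Wls mutant, against 928 and 789 CPM in the controls (7 of 14 higher, 2 lower). Smooth muscle genes summed to 3153 CPM, against 2523 and 2153 CPM (3 of 12 higher), and skeletal muscle genes to 256 CPM, against 134 and 118 CPM (5 of 11 higher). Endothelial genes summed to 376 CPM, against 472 and 528 CPM (1 of 10 lower). Neural genes summed to 343 CPM, against 326 and 336 CPM (2 of 13 higher), erythroid genes to 11300 CPM, against 13150 and 7899 CPM (0 of 9 called by edgeR or DESeq2, 1 by limma-voom, and 2 at an unadjusted p under 0.05 in edgeR), and fibroblast genes to 12220 CPM, against 14930 and 12210 CPM (1 of 12 higher). Beside these counts, 2.39% of all genes tested in the tracheas were called lower and 1.88% higher. The part of these cells in the lower trio was not tested.

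The genes most like each member over all 8 libraries were found by the root-mean-square difference in log2 CPM, after each table was centred on its own mean, among 9680 genes with a mean of at least 10 CPM in both tables. Among the genes nearest to Sox5 were the netrin receptor gene Unc5c (0.0567), the dynamin gene Dnm1 (0.121), the sialyltransferase gene St6gal1 (0.127) and Thsd4 (0.128), beside a median of 0.548 over the genes compared. Nearest to Sox6 were Bmp1 (0.0905), which encodes a procollagen proteinase, Mterfd2 (0.101), the zinc finger gene Prdm16 (0.109), BC005764 (0.111) and the T-box gene Tbx5 (0.114), beside a median of 0.494. Nearest to Sox9 were 5930403L14Rik (0.168), the growth factor receptor gene Fgfr3 (0.187), Col9a2 (0.187), Wwp2 (0.244) and the ETS factor gene Ets2 (0.262), beside a median of 0.915. Fgfr3, Col9a2 and Wwp2 are also in the list of cartilage targets.

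Sox5 and Sox6 were close to each other on this measure, with a difference of 0.214 that ranked Sox6 39 from Sox5 and Sox5 41 from Sox6. Sox9 was farther from both, at 0.468 from Sox5 and 0.606 from Sox6, where it ranked 2493 and 7394. Seen from Sox9, whose libraries spread more, Sox5 ranked 50 and Sox6 140. These ranks describe the 8 libraries, and no test was made of them.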

How the data were processed

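The authors deposited whole-number counts per gene, in separate tables of sorted cells and of tracheas. Per the submitters' processing notes Bowtie2, Cufflinks, DESeq and mm10 were used, and Trim Galore for the sorted cells. Not given in the sources used here are their versions and roles, the counting program and its annotation. Per the labels' protocols, Trizol RNA was amplified with SMART-Seq v4 (sorted cells) or Ovation v2 (tracheas) and made into Nextera XT libraries.

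Each table was tested on its own with edgeR 4.0.16 in R 4.3.3, with TMM scaling, filterByExpr and the two-sided quasi-likelihood F test. Benjamini-Hochberg adjusted p-values cover all genes tested, and the threshold was 0.05. The sorted cells had 3 residual degrees of freedom and the tracheas 1, and the test shares variance across genes. Standard errors are the log2 fold change divided by the square root of F. DESeq2 1.42.0 and limma-voom 3.58.1, RLE scaling, other filters, a replicate block and leaving out each library were alternatives. Background subtraction took the receptor-gene counts per kilobase of coding sequence times each gene's exon length (GENCODE M21, 23132 of 23478 rows matched) from each count, floored at 0 and rounded. Ratios had 0.5 added to each count. A simulation changed 200 genes, far fewer than the 11888 called in the sorted cells, and held no background particular to the mutants. Its rates may therefore not hold for these data. On simulated counts with 200 lowered genes the fit recovered 10% of 2-fold and 67% of 4-fold changes in the comparison of sorted cells, and 89% and 100% in that of tracheas, with 8 and 7 false calls.

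Members and lists were chosen with earlier results of these data known. The text names, from each list, Col2a1, Acan and the 3 called genes of lowest adjusted p per direction with a mean of at least 10 CPM. Other listed genes are named where a count is small, and were chosen after their values were seen. Replicate libraries differed by 24.5 to 192.6 times the variance that counting alone gives. Reads carry no molecular identifiers. The list of genes nearest to a member leaves out 1 that is not reported here.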

Additional observations from a re-analysis of the deposited data

How the results depend on the processing

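The direction of every member was the same under all 13 alternatives for the sorted cells and all 7 for the tracheas. Leaving out 1 library of the sorted cells gave log2 fold changes of -1.79 to -1.28 for Sox5, -1.30 to -1.14 for Sox6 and -2.95 to -1.43 for Sox9, with 3595 genes called without mutant 1, 7829 without mutant 2 and up to 10478 without a control, against 11888. Of these, leaving out mutant 1 ended the Sox9 call. Background subtraction gave 3965 genes called, and Sox9 at -1.63. On the subtracted counts, leaving out 1 library, an alternative chosen after seeing the data, gave -1.93 to -1.17 for Sox5, -1.44 to -1.29 for Sox6 and -2.55 to -1.05 for Sox9, with adjusted p of 0.019 to 0.055, 0.022 to 0.055 and 0.046 to 0.26 (edgeR).

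Mutants and controls share numbers in the labels, which name no shared litter or day. Same-numbered libraries deviated from their group means with correlations of -0.174 and -0.106, so the numbers were not taken as pairs. The mutants deviate from their mean by opposite amounts, so these correlations are not independent of each other. With the replicate block Sox5 was at -1.58, Sox6 at -1.31 and Sox9 at -2.40 (edgeR adjusted p = 0.052, 0.052 and 0.060). The block left 4 of 21665 genes called, with 9833 at an unadjusted p under 0.05. It has fewer residual degrees of freedom than the 3 of the main fit. Control 3 is alone in its block and adds nothing to the contrast.

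Of the listed genes called lower in the sorted cells (counts under alternatives were added after seeing the data), leaving out 1 library gave 4 to 10 of the cartilage targets, against 7, 6 to 10 of the regulators, against 9, and 2 to 4 of the other Sox genes, against 4. The lowest count came without mutant 1 in each list. Subtraction gave 3 cartilage targets. The replicate block gave 0 in each of the 3 lists by edgeR, with 10, 8 and 4 lower at an unadjusted p under 0.05.

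The mutant minus control difference in log2 ratio ran from 0.04 without mutant 1 to 1.66 without mutant 2 for Sox6 to Sox9, and from -0.61 without mutant 2 to 0.00 without mutant 1 for Sox5 to Sox6, which was -0.22 after subtraction. For Sox5 to Sox9 it ran from 0.05 without mutant 1 to 1.05 without mutant 2. Subtraction gave 0.36 for Sox6 to Sox9, against 0.85, and 0.14 for Sox5 to Sox9, against 0.55. In the tracheas DESeq2 called 259 genes and a filter of 10 counts in 2 libraries 305, against 676. The cause of each change was not tested. Depth limits the mutants, where Sox5 and Sox6 rest on 447 to 835 counts in the sorted cells and on 617 and 631 in the trachea.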
